A study of Mus musculus with 6 samples.

Results

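Selenop, which encodes selenoprotein P, and 9 further selenoprotein genes were followed in mouse collecting duct cells exposed to a vasopressin analog. Selenop was chosen by its measured change, since it was among the largest increases of the array comparison described here, and Gpx1, Gpx2, Gpx3, Gpx4, Txnrd1, Txnrd2, Selenow, Selenos and Selenom were joined to it as further genes whose proteins contain selenocysteine. Of these 10 genes, 8 had at least 1 probe set that names only that gene, 17 probe sets in all among the 28225 of the table. Gpx2 and Gpx3 had none that carried their symbol and are not analysed here. Because the gene set was drawn up with the difference between dDAVP and vehicle known, the differences of its members are given below as a description with intervals, and the counts of calls among them are set beside those of the whole table without being read as a test.

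The cells were mpkCCD clone 11, a single clone of an immortalised mouse line derived from cortical collecting duct, a distal part of the kidney tubule system, grown as a polarized layer on membrane supports. In the dDAVP group (3 arrays) the layer received 0.1 nM dDAVP, a synthetic agonist of the vasopressin V2 receptor, for 5 days once its electrical resistance had reached 5 kohm per cm2. The vehicle group (3 arrays) was handled alike without the agonist. Total RNA of each sample went onto 1 Affymetrix GeneChip array of mouse transcripts, and the values are log2 signals, so a difference of 1 is a doubling. The samples are called biological replicates, without a word on passages or days, so the spread between arrays may be partly technical.

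Selenoproteins contain selenocysteine, an amino acid that is inserted at a UGA codon with the help of a hairpin in the 3' untranslated region of the messenger RNA. Selenoprotein P is the exception among them in carrying several selenocysteines: it is secreted, mostly by the liver, and delivers selenium to other organs, where receptors of the LDL receptor family take it up. Most other members are enzymes of thiol redox chemistry, such as the glutathione peroxidases, which reduce peroxides with glutathione, and the thioredoxin reductases, which keep thioredoxin reduced with NADPH. When selenium is scarce, the messenger RNAs of Gpx1 and Selenow are known to be lost early and those of Gpx4 and Txnrd1 to be better kept.

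The label of the cells was checked first. Aqp2, the water channel that vasopressin controls in principal cells, rose (10.85 ± 0.072 in dDAVP arrays against 6.70 ± 0.042 in vehicle arrays, SD, n = 3 each, limma adjusted p = 1.66e-07). It was 1 of 9 measured principal cell markers. Of these, 3 were higher at a limma adjusted p below 0.05, beside 36 of all 12364 genes called in either direction. They were Aqp2, Avpr2 (by 0.52 log2 units) and Fxyd4 (0.68). The other 6 were not called: Gata3 (-0.075), Hsd11b2 (-0.041), Scnn1a (0.02), Aqp3 (0.15), Scnn1b (0.23) and Scnn1g (0.26). Aqp3 was dim, at 5.07 in dDAVP and 4.91 in vehicle arrays. The epithelial markers Epcam, Krt8, Krt18 and Cdh1 had mean signals above 11 in both groups. As a guide to signal without expression, 10 olfactory receptor probe sets had a highest single value of 3.74. Of the markers of hepatocytes, the cells known for making selenoprotein P, Ttr averaged 2.96 in dDAVP arrays and 2.88 in vehicle arrays, and Alb 3.30 in dDAVP arrays and 3.68 in vehicle arrays, with 1 vehicle array of Alb at 3.81. Among proximal tubule markers the means were 3.44 for Aqp1, 4.25 for Slc22a8 and 8.25 for Lrp2 in dDAVP arrays, against 3.43, 4.13 and 8.35 in vehicle arrays. Among macrophage and leukocyte markers they were 3.32 for Ptprc, 3.62 for Adgre1 and 9.29 for Csf1r in dDAVP arrays, against 3.11, 3.53 and 9.42 in vehicle arrays. Cd68 was at 5.65 in dDAVP arrays and 5.46 in vehicle arrays, without overlap. The means of Col1a1 (fibroblasts) and Cdh5 (endothelium) were between 3.09 and 3.65. The part of these markers in the results below was not tested. The mean over the hepatocyte markers, 2 of 4 measured, was 3.08 to 3.16 in the dDAVP arrays and 3.21 to 3.39 in the vehicle arrays, and that over the proximal tubule markers, 3 of 7 measured, was 5.25 to 5.36 in the dDAVP arrays and 5.27 to 5.32 in the vehicle arrays. For bulk RNA a change in the number of cells that express a gene and a change in RNA per cell cannot be told apart.

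Selenop was measured by 1 probe set. Its log2 signal was 5.42, 5.63 and 5.52 in the dDAVP arrays, against 4.28, 4.36 and 4.60 in the vehicle arrays. All dDAVP arrays lay above all vehicle arrays, and the gap between the groups was wider than the range within either. The means were 5.52 ± 0.10 in dDAVP arrays and 4.41 ± 0.16 in vehicle arrays (SD, n = 3 each), a difference of 1.11 ± 0.095 log2 units (SE, 95% interval 0.89 to 1.33) or 2.16-fold. Counted from the largest increase, this was number 15 of the 28225 probe sets. The probe set was dim: its mean over the 6 arrays stood at the 26.6th percentile of brightness. Even its lowest vehicle value, 4.28, exceeded every olfactory receptor value. Brightness depends on the probes as well as on the transcript, so it does not rank the amounts of different messenger RNAs. No second probe set was there to repeat the Selenop measurement.

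**Figure D1:**
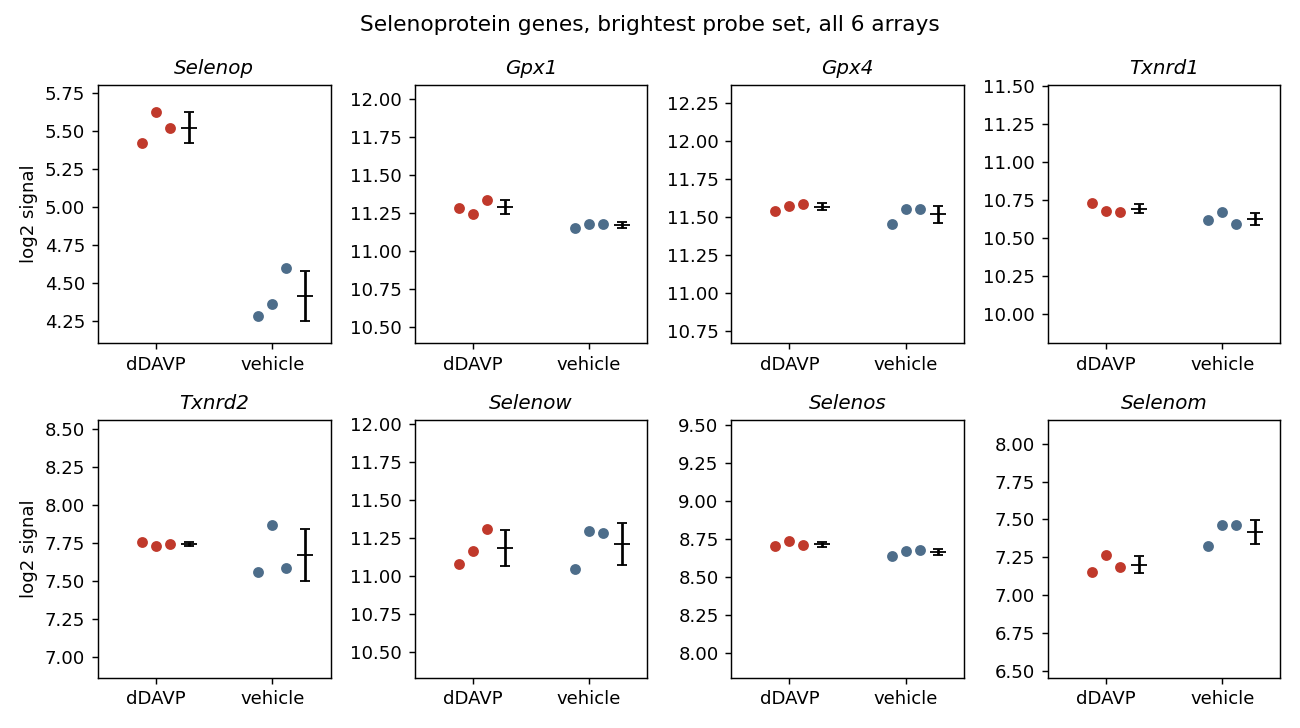
Log2 signal of the brightest probe set of each of the 8 measured selenoprotein genes. Points are the 3 dDAVP and the 3 vehicle arrays, the bar beside them is the mean ± SD, and every panel spans the same range on its y axis. Selenop stands between 5.42 and 5.63 with dDAVP and between 4.28 and 4.60 with vehicle, while the points of the other genes differ far less.

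The promoter of Selenop is shown because it is the 1 member with a difference of this size, and Txnrd1 because its gene is a textbook target of the antioxidant response. The windows around annotated start sites come from RefSeq (GRCm38.p6) and were searched on both strands for the FoxO core GTAAACA, the cAMP response element TGACGTCA, its half-site TGACG, which is also part of the full element, and the antioxidant response element core TGACNNNGC. FoxO factors are known to drive Selenop in liver, and cAMP response elements bind CREB, a target of the kinase that vasopressin activates. Capitals mark the match, and the sequences read 5′ to 3′ on the strand of the gene.
Selenop, FoxO core, chr15:3270942-3270970, + strand: cagagggcgagGTAAACAacagggctata
Selenop, half-site on the opposite strand, chr15:3270788-3270816, + strand: aagttagaaactCGTCAaaagtcgtccgt
Txnrd1, antioxidant core on the opposite strand, chr10:82859104-82859132, + strand: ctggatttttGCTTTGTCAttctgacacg

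Among the 10 selenoprotein genes, all present in the promoter table, the FoxO core was found for Selenop alone (1 gene), at -24 counted from the last of its 3 annotated starts. It occurs for 4.05% of the 27025 genes in the table. The full cAMP response element was found for none of the 10 (0), against 2.03% of all genes. The half-site occurred for Selenop, Gpx4, Txnrd1, Txnrd2 and Selenom, 5 of 10, against 23.0% of all genes, and the antioxidant core for Txnrd1 alone (1), against 13.99%. A gene was counted if any of its start windows matched. Selenop and Txnrd1 had 3 windows each, Gpx4 had 4 and the other members 1 each, beside 32851 windows for all 27025 genes. A gene with more windows has more room for a match, so the shares are not like for like. These are letter matches in short windows. Which start the cells use was not measured.

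Gpx1, the abundant cytosolic glutathione peroxidase, measured 11.28, 11.24 and 11.34 in the dDAVP arrays, against 11.15, 11.18 and 11.18 in the vehicle arrays. The groups did not overlap, but the difference was 0.12 ± 0.057 log2 units (SE), and its 95% interval, -0.013 to 0.25, included 0. Gpx4, which reduces peroxidised lipids in membranes, had overlapping groups on both of its probe sets, with differences of 0.05 (95% interval -0.088 to 0.18) on the brighter and 0.09 (-0.096 to 0.28) on the other. The upper bounds correspond to 1.19-fold for Gpx1 and 1.14-fold for the brighter Gpx4 probe set.

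Txnrd1, the cytosolic thioredoxin reductase, had 3 probe sets with differences of 0.07, 0.06 and 0.12 in order of brightness, and its groups overlapped on each. On the brightest the means were 10.69 ± 0.030 in dDAVP arrays and 10.63 ± 0.041 in vehicle arrays (SD, n = 3 each). Its mitochondrial counterpart Txnrd2 had 4 probe sets that differed among themselves. The brightest gave 7.76, 7.73 and 7.75 in the dDAVP arrays, against 7.56, 7.87 and 7.59 in the vehicle arrays, and the groups overlapped. The third gave 5.35, 5.18 and 5.24 in the dDAVP arrays, against 4.86, 5.15 and 4.97 in the vehicle arrays. There the dDAVP arrays were all higher, by 0.26 ± 0.088 (SE, unadjusted 95% interval 0.059 to 0.47), without a call (limma adjusted p = 0.481). The second Txnrd2 probe set had the opposite sign, -0.15 (-0.36 to 0.058), and the dimmest, with overlapping groups, was at 5.67e-04. The third carries the suffix s, which marks a probe set that matches several transcripts, so it may read other transcripts than its neighbours do.

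Selenow, a small thioredoxin-fold protein known from muscle, gave -0.024 (95% interval -0.24 to 0.19) on its brighter and -0.0040 (-0.19 to 0.18) on its other probe set. The brighter one measured 11.08, 11.16 and 11.31 in the dDAVP arrays, against 11.05, 11.30 and 11.28 in the vehicle arrays, and the groups overlapped. Its suffix x marks probes that may cross-react with other sequences. The second Gpx4, the third Txnrd1 and the second Selenos probe sets, in order of brightness, carry it too. For the brighter Selenow probe set the sign turned when dDAVP replicate 1, vehicle replicate 2 or vehicle replicate 3 was left out (0.028, 0.021 and 0.012).

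Selenos and Selenom belong to the endoplasmic reticulum. Selenos, a membrane protein that takes part in the removal of misfolded proteins, measured 8.70, 8.73 and 8.71 in the dDAVP arrays, against 8.64, 8.67 and 8.68 in the vehicle arrays. The groups did not overlap on this probe set, which also carries the suffix s, with a difference of 0.05 (95% interval -0.073 to 0.18). They overlapped on the other 2 probe sets, whose differences were 0.04 and -0.012. Selenom, a thioredoxin-fold protein of the lumen, had 1 probe set with 7.15, 7.27 and 7.19 in the dDAVP arrays, against 7.33, 7.46 and 7.46 in the vehicle arrays. It was the 1 member gene whose dDAVP arrays were all below the vehicle arrays. The difference was -0.21 ± 0.067 log2 units (SE, 95% interval -0.37 to -0.059), which leaves 0.862 of the vehicle signal. This interval is not adjusted for the number of probe sets, and Selenom was not called (limma adjusted p = 0.447).

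**Figure D2:**
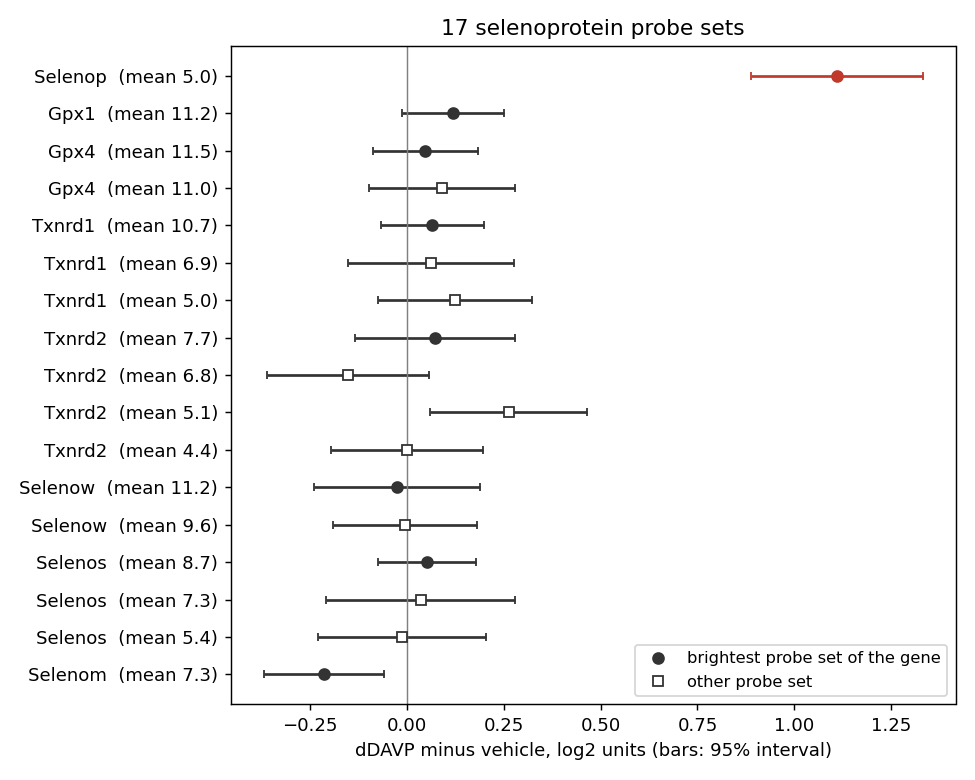
Difference between dDAVP and vehicle arrays (x axis, log2 units, 95% interval of the limma fit) for the 17 selenoprotein probe sets, with the mean signal over 6 arrays in the row labels. Filled circles are each gene's brightest probe set and open squares the others; Selenop (1.11) is the 1 called probe set, in red, and the others lie between -0.21 and 0.26.

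With calls made in limma over the whole table at an adjusted p (Benjamini-Hochberg) below 0.05, 1 of the 17 selenoprotein probe sets was called, that of Selenop, where 0.216% of all 28225 were. By gene, on the brightest probe set, it was 1 of 8 where 0.291% of 12364 genes were called. Groups did not overlap with dDAVP above for 4 of the 17 (Selenop, Gpx1, Selenos and the third Txnrd2 probe set), against 8.07% of all probe sets, and with dDAVP below for 1 (Selenom), against 5.35%. Since the contrast had served to choose the set, nothing is read from these shares. Without Selenop, none of the 16 remaining probe sets was called (0, with 2 at an unadjusted p below 0.05, beside 2251 of all 28225), and the 7 genes had a median difference of 0.05 beside 0.01 for all genes. The absence of a call does not show that these genes are unaltered. Apart from Selenom, the intervals of their brightest probe sets leave room for differences of about 0.18 to 0.28 log2 units upward. They leave room for decreases too, with lower bounds from -0.24 (Selenow) to -0.013 (Gpx1). The interval of Selenom was -0.37 to -0.059.

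The genes around these were taken from lists by function, drawn up with earlier results of these arrays known, and they were tested in the same fit. None of the 54 measured genes of the 7 lists was called by limma (0), beside 36 of all 12364 genes. Of the 54, 5 had an unadjusted p below 0.05, beside 965 of all 12364 genes. The other selenoproteins, of which 11 of 14 were measured, had a median difference of 0.0033 log2 units and spanned -0.034 to 0.16. Selenoi, an enzyme of phosphatidylethanolamine synthesis, differed most. It measured 8.30, 8.28 and 8.34 in the dDAVP arrays, against 8.17, 8.16 and 8.09 in the vehicle arrays, which did not overlap (difference 0.16 ± 0.057, SE, limma adjusted p = 0.503). Selenof, Selenoh and Selenok were at -0.0056, 0.0015 and -0.0070.

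The machinery that makes selenocysteine and inserts it was measured in full, 8 of 8 genes. The differences ran from -0.087 for Eefsec, the elongation factor for selenocysteine, to 0.15 ± 0.096 (SE, limma adjusted p = 0.796) for Secisbp2, which binds the hairpin of selenoprotein messages. Groups overlapped for each of the 8. Among all 12364 genes, 1251 had all dDAVP arrays above and 634 all below, so overlap was the usual case. The 3 receptors for selenoprotein P gave 0.10 for Lrp1, 0.04 for Lrp8 and -0.10 ± 0.073 (SE, adjusted p = 0.820) for Lrp2, the megalin of kidney tubules, all with overlapping groups. Lrp2 was bright in both, at 8.25 in dDAVP arrays and 8.35 in vehicle arrays.

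Thiol enzymes and proteins without selenocysteine had a median of 0.02 over 15 of 20 genes. Txnip, which binds and inhibits thioredoxin, stood apart from the rest at 11.43, 11.37 and 11.17 in the dDAVP arrays, against 11.67, 11.79 and 11.77 in the vehicle arrays. The groups did not overlap. Its difference of -0.42 ± 0.082 (SE) was not called (adjusted p = 0.154, with 0.0129 to 0.496 over 13 alternative settings), but it was with a trended prior (adjusted p = 0.0129) and in a fit limited to the brighter probe sets, those over the median level (adjusted p = 0.0445). Srxn1, which repairs oxidised peroxiredoxins, was at 0.21 ± 0.064 with groups that did not overlap (adjusted p = 0.426).

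Nrf2, encoded by Nfe2l2, is the transcription factor of the antioxidant response and a known activator of Txnrd1. Of this factor and its classic targets 9 of 10 genes were measured, with a median of 0.09. Nqo1, a quinone reductase, gave 8.41, 8.47 and 8.33 in the dDAVP arrays, against 8.12, 8.18 and 8.27 in the vehicle arrays, without overlap (0.21 ± 0.069, SE, adjusted p = 0.469). Nfe2l2 itself was at 0.02, Hmox1, the haem-degrading enzyme, at -0.0068 and Keap1 at -0.12. Of the 9 differences 7 were positive and 2 negative, beside 6844 and 5520 of all 12364 genes. All dDAVP arrays were above for 3 of the 9, Nqo1, Srxn1 and Gclm (0.10). The 6 partners of Selenos in the removal of misfolded proteins lay between -0.086 (Derl3, adjusted p = 0.868) and 0.02, with a median of -0.016. Their groups overlapped for each, where 1251 of all 12364 genes had dDAVP above without overlap and 634 had dDAVP below.

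Of the 4 factors known to control Selenop in liver, limma called 0, beside 36 of all 12364 genes. An unadjusted limma p below 0.05 was found for 1 of the 4, beside 965 of all 12364 genes. Ppargc1a, a coactivator, measured 7.09, 7.22 and 7.19 in the dDAVP arrays, against 7.39, 7.41 and 7.55 in the vehicle arrays. The dDAVP arrays were all lower (-0.28 ± 0.071, SE, limma adjusted p = 0.308). Whether Ppargc1a bears on the Selenop difference was not tested. Foxo1 was at 0.01, Foxo3 at -0.16 with overlapping groups, and Hnf4a at 0.02. The array measures messenger RNA, and the activity of these factors was not measured.

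**Figure D3:**
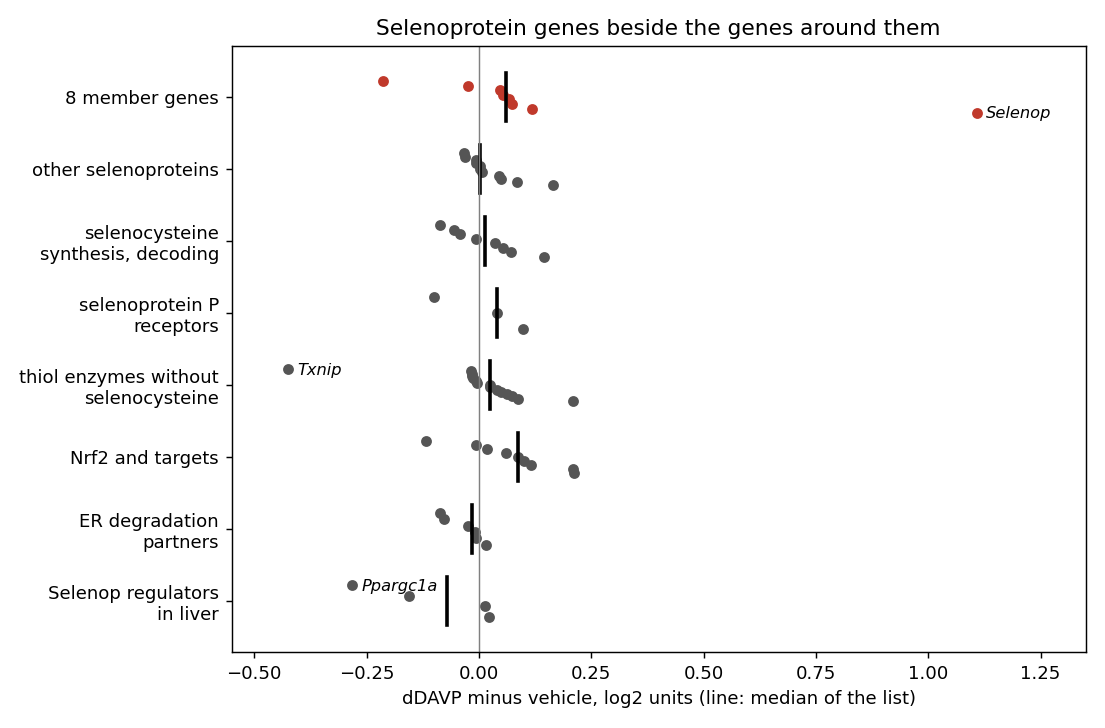
Difference between dDAVP and vehicle (x axis, log2 units) for the 8 measured selenoprotein genes and for 7 lists of related genes, 1 point per gene on its brightest probe set. Black lines are medians, and genes beyond 0.25 in either direction are named; Selenop lies at 1.11 and the list genes between -0.42 and 0.21.

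The genes whose values over the 6 arrays were most like those of Selenop were found by Pearson correlation among 953 genes with a range of at least 0.5 log2 units. With only 2 groups of arrays this likeness follows largely from the difference between the groups, and 66 of the 953 had a correlation of 0.9 or more. The 5 closest were Sprr1a (0.991), a small proline-rich protein of squamous epithelia, Ghr (0.991), the growth hormone receptor, Bcat1 (0.987), an aminotransferase of branched-chain amino acids, Lurap1l (0.987) and the tetraspanin Tspan15 (0.986). Ghr measured 8.29, 8.31 and 8.25 in the dDAVP arrays, against 7.77, 7.87 and 7.92 in the vehicle arrays, a difference of 0.43. That probe set, which carries the suffix s, was not called (limma adjusted p = 0.0552), and neither was that of Tspan15 (0.0673).

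**Figure D4:**
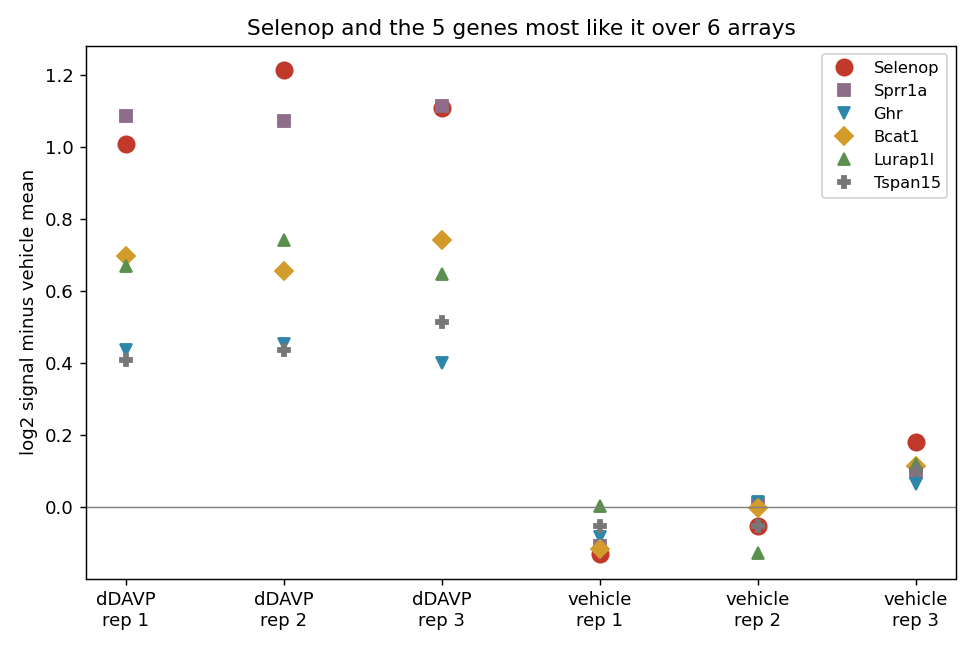
Log2 signal of Selenop and the 5 genes most like it, each minus its own vehicle mean (y axis), on the 6 arrays (x axis). The dDAVP arrays of all 6 genes lie above their vehicle arrays, with Selenop and Sprr1a near 1.1 and Ghr and Tspan15 near 0.43 and 0.45.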

How the data were processed

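The authors deposited log2 signals, 1 per probe set and array. Per the submitters' processing notes the tools were Affymetrix Expression Console 1.1, RMA and MAS5. Which of these methods made the values is not stated in any source used here. Array medians lay within 0.040 log2 units, and correlations between arrays were 0.996 to 0.998, so no further normalization was done. Summary over probes can compress differences of dim probe sets. The number of arrays limits the precision.

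Groups came from sample titles. The 62 control probe sets were left out. Names came from the platform annotation (23097 probe sets with 1 gene, 611 with several, 4517 with none). dDAVP and vehicle were compared with limma 3.58.1 (R 4.3.3, lmFit and eBayes, 4 residual degrees of freedom) over 28225 probe sets with Benjamini-Hochberg adjustment at 0.05, and the code was tested on simulated data. Each gene is represented by its brightest probe set over the 6 arrays. Promoters span 250 bases before to 50 after a RefSeq start. Figures used matplotlib 3.10.9.

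The genes and lists were chosen with earlier results of these data known. Named were all members, the called genes of each list or else the gene with the largest difference, and the 5 genes most like Selenop; other list genes were chosen after their values were seen. Alternatives were 2 normalizations, poly-A scaling, a filter on dim probe sets, 2 priors, the replicate block, leaving out each array, and averaging over the probe sets of a gene.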

Additional observations from a re-analysis of the deposited data

How the results depend on the processing

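The log2 difference of Selenop stayed between 1.04 and 1.20 in the 12 alternatives that could give it, with these bounds reached without vehicle replicate 1 and without vehicle replicate 3. The filter to probe sets above the median level removed the dim Selenop probe set, so 0 selenoprotein probe sets were called there, against 1 in each of the others. The total of 61 called probe sets became 95 with that filter and 146 with a trended prior, and it ran from 22 (without dDAVP replicate 2) to 46 when 1 array was left out (25 and 30 without dDAVP replicates 1 and 3, 26 without vehicle replicate 1 or 3). With the replicate block it was 24. The residual correlation of same-numbered arrays was 0.20, 0.046 and -0.052 for replicates 1, 2 and 3. Whether the replicate numbers pair the samples is not stated. These values cannot decide it, since differently numbered arrays were not compared. In the list of thiol enzymes without selenocysteine 1 gene, Txnip, was called with the filter and with the trended prior; the other lists had 0 called genes throughout. Selenow lay between -0.11 and 0.028, and Gpx1 (0.095 to 0.14) and Selenom (-0.26 to -0.19) kept their signs. Leaving out 1 array took Txnrd2 to between 0.016 and 0.17, Gpx4 to between 0.016 and 0.065, and Txnrd1 to between 0.048 and 0.088. With poly-A scaling Gpx4 was at 0.024 and Selenos at 0.029, and as the mean of its probe sets Selenos was at 0.026. The cause of these shifts was not tested. Selenop rests on 1 dim probe set.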

Other observations

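In the RefSeq gene order (GRCm38.p6) Ghr, the second most alike gene, is also a neighbour of Selenop, a comparison made after the values were seen. Among protein-coding genes of chromosome 15, Ccdc152 comes next to Selenop, Ghr is 2 places away and Fbxo4, a component of ubiquitin ligases, 3 places. No probe set used here named Ccdc152, nor LOC115489419 and LOC115489417, which lie 1 and 2 places away on the other side. The second Ghr probe set gave 7.13, 7.02 and 7.11 in the dDAVP arrays, against 6.73, 6.61 and 6.62 in the vehicle arrays, a difference of 0.43 ± 0.065 (SE), close to that of the brightest. The third and dimmest had overlapping groups and a difference of 0.06. Fbxo4 measured 6.74, 6.65 and 6.82 in the dDAVP arrays, against 6.44, 6.55 and 6.57 in the vehicle arrays, without overlap, a difference of 0.22 ± 0.070 (SE). Whether the neighbourhood of the genes bears on their differences was not tested.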
